A study of Mus musculus with 2 samples.

Results

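The 5 genes described here are the mouse Fc gamma receptor genes Fcgr1, Fcgr2b, Fcgr3 and Fcgr4 and Fcer1g, the gene of the signalling chain that the activating receptors share. They were picked by name from the 32285 genes of the count matrices, each symbol matched 1 row, and all 5 were measured in both libraries. GR1+ cells were sorted with magnetic beads from 4T1 breast tumors of BALB/c mice aged 6 to 8 weeks and profiled by droplet single-cell RNA-seq, with 1 pooled library per tumor line. The 4T1P line is the parental 4T1 line, whose tumors do not respond to anti-PD1 antibody (labelled non-responding), and 4T1M is a mutagenized clone derived from it, whose tumors do respond (labelled responding). The description deposited with the data gives 5 mice pooled per library, whereas the study's figure legend gives a smaller number. The age is also the deposited one, and the study's methods give an older range at injection of the tumor cells. The tumors were taken as a baseline without anti-PD1, and the question was which myeloid cells differ between responding and non-responding tumors. Because mice were pooled and each line has 1 library, the difference between the libraries has no replicate check and could not be tested. Every interval below is a 95% interval for counting error alone. Each condition is 1 line, and the line, its tumors and its library cannot be told apart.

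Fc gamma receptors bind the constant part of IgG and connect antibody to phagocytosis, degranulation and cytokine release in myeloid cells. The activating receptors Fc gamma RI (Fcgr1), Fc gamma RIII (Fcgr3) and Fc gamma RIV (Fcgr4) carry no signalling motif of their own in the mouse and pass their signal through the immunoreceptor tyrosine-based activation motif (ITAM) of the FcR gamma chain (Fcer1g), which recruits Syk. Fc gamma RIIb (Fcgr2b) holds an inhibitory motif (ITIM) in its own tail, which recruits the phosphatase SHIP-1 and raises the threshold for activation, so that the balance of activating and inhibitory receptors is a common readout of how a myeloid cell is set towards IgG. Macrophages carry all 4 receptors, mature mouse neutrophils are known mainly for Fc gamma RIII and Fc gamma RIV, and B cells carry Fc gamma RIIb alone.

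The activating to inhibitory ratios that follow set the receptors that signal through the chain over the receptor that holds an ITIM. Fcer1g itself is not counted in them. The 2 stretches that separate the chain from the inhibitory receptor are shown here. Both are coding sequence of the reference transcripts (GENCODE, GRCm38, from C57BL/6J mice rather than BALB/c), 5′ to 3′ on the strand of the gene, and the capitals mark the codons of the tyrosines that kinases phosphorylate. The ITAM of Fcer1g lies at chr1:171229889-171230072 on the minus strand, is divided by an intron, and spans codons 65 to 79 of 86. The ITIM of Fcgr2b lies at chr1:170961071-170961088 on the minus strand, in 1 exon, and spans codons 317 to 322 of 340.
Fcer1g ITAM: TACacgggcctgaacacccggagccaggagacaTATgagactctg
Fcgr2b ITIM: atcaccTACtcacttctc
The ITAM stretch holds 2 tyrosine codons and the ITIM stretch holds 1.

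In GRCm38, 4 of the 5 genes lie on chromosome 1 within 275749 bases, namely Fcgr2b (chr1:170958617-170976547, minus strand), Fcgr4 (chr1:171018920-171029761, plus strand), Fcgr3 (chr1:171051174-171064935, minus strand) and Fcer1g (chr1:171229572-171234365, minus strand). Fcgr1 lies apart on chromosome 3 (chr3:96282909-96293969, minus strand). Fcgr2b and Fcgr3 are close relatives, and their annotated coding transcripts share 233 words of 31 bases, which are 6.42% of those of Fcgr2b and 14.3% of those of Fcgr3. The last 500 bases of Fcgr2b transcripts and the last 500 bases of Fcgr3 transcripts share none with each other. Whether a shared word lies in the last 500 bases of only 1 of the 2 genes was not read. No other pair of the 5 genes shares any word. The end of the transcript that was sequenced is not given in the sources used here, so reads from the shared stretch could have been lost or assigned to either gene. An antisense gene, Gm38204, overlaps Fcgr2b by 3175 bases and held 1 UMI in each library.

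The promoters of Fcgr1 and Fcgr4 are printed because these were the receptor genes whose level in macrophages was higher in 4T1M. They are the 250 bases before the RefSeq start (GRCm38.p6), read on the strand of the gene, at chr3:96293970-96294219 for Fcgr1 (minus strand) and chr1:171018676-171018925 for Fcgr4 (plus strand). Capitals mark matches, on either strand, to GAAA, 2 bases of any kind and GAAA (the core of the interferon-stimulated response element, ISRE) and GAGGAA (the core of PU.1 sites, written TTCCTC on the other strand).
Fcgr1 promoter: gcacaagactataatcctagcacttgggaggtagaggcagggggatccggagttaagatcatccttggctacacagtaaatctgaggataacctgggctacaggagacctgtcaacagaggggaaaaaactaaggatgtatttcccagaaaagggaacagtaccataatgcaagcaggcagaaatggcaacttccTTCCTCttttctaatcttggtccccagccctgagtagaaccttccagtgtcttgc
Fcgr4 promoter: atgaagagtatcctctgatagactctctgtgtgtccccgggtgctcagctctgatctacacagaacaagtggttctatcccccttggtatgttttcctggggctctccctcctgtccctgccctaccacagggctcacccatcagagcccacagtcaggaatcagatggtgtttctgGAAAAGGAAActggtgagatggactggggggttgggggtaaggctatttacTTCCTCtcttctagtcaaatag
The Fcgr1 window held the PU.1 core from 55 to 50 bases before the start. The Fcgr4 window held the ISRE letters from 73 to 64 bases and the PU.1 core from 22 to 17 bases before the start. Of 32851 RefSeq promoter windows of the same length, 2.98% held the ISRE letters and 23.3% the PU.1 core. The windows of Fcgr2b and Fcer1g held neither motif, and that of Fcgr3 held the PU.1 core alone. These matches describe letters in the reference and were not tied to binding in these cells.

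The matrices held 2947 barcodes and 21855657 UMIs for 4T1P and 5004 barcodes and 24303957 UMIs for 4T1M. A barcode was used if it had 500 to 5000 genes and no more than 10% of its UMIs from mitochondrial genes, which left 1726 in 4T1P and 3461 in 4T1M, more in all than the methods of the study state for the same limits. Neutrophils were the kept barcodes with at least 1.5% of their UMIs from S100a8 and S100a9 and under 0.5% from C1qa, C1qb, C1qc and Apoe, 612 in 4T1P and 1686 in 4T1M. The study reports lower S100a8 and S100a9 RNA in its interferon-stimulated, Ly6E-high neutrophils than in other GR1+ neutrophils. How many such cells the S100a8 and S100a9 limit left out of the class in each library was not tested. Macrophages had under 1.5% from S100a8 and S100a9 and at least 0.3% from C1qa, C1qb, C1qc, Apoe, Csf1r, Cd68 and Fn1, 798 in 4T1P and 976 in 4T1M. The median depth was 3054.5 and 2957.5 UMIs per neutrophil and 9727 and 9213.5 UMIs per macrophage. Macrophage markers that the rule did not use (Adgre1, Ms4a7 and Mrc1) summed to 967 and 584 CPM in the macrophages of 4T1P and 4T1M, and to 17.2 and 18.2 CPM in the neutrophils. The neutrophil marker list of 10 genes summed to 730 and 1345 CPM in macrophages (169497 and 138205 in neutrophils), and the macrophage list of 10 to 656 and 722 CPM in neutrophils (20036 and 19384 in macrophages). Both lists include genes of the class rule, S100a8 and S100a9 among them, so the rule itself set part of this contrast. Lists for T, B, NK and dendritic cells, tumor epithelium and stroma each summed to 69.9 CPM or less in both classes. No mast cell or basophil marker of 5 had a UMI in macrophages, and no NK cell marker of 6 had 1 in neutrophils. The libraries shared 5 barcodes, 3 of them among those kept.

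Levels are UMIs per 1000000 UMIs of the class (CPM). They are compared between genes as counts of tagged molecules, 1 tag each, and were not divided by transcript length. The 5 genes together took 3126 CPM in neutrophils of 4T1P and 3250 in those of 4T1M, and 3751 and 3835 CPM in macrophages. The total was higher in macrophages, with intervals apart in 4T1P (3057 to 3196 against 3710 to 3791) and in 4T1M (3206 to 3294 against 3796 to 3875). Fcer1g made up most of the neutrophil total and was higher there than in macrophages. Every receptor gene was higher in macrophages, as the plot of levels shows.

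**Figure D1:**
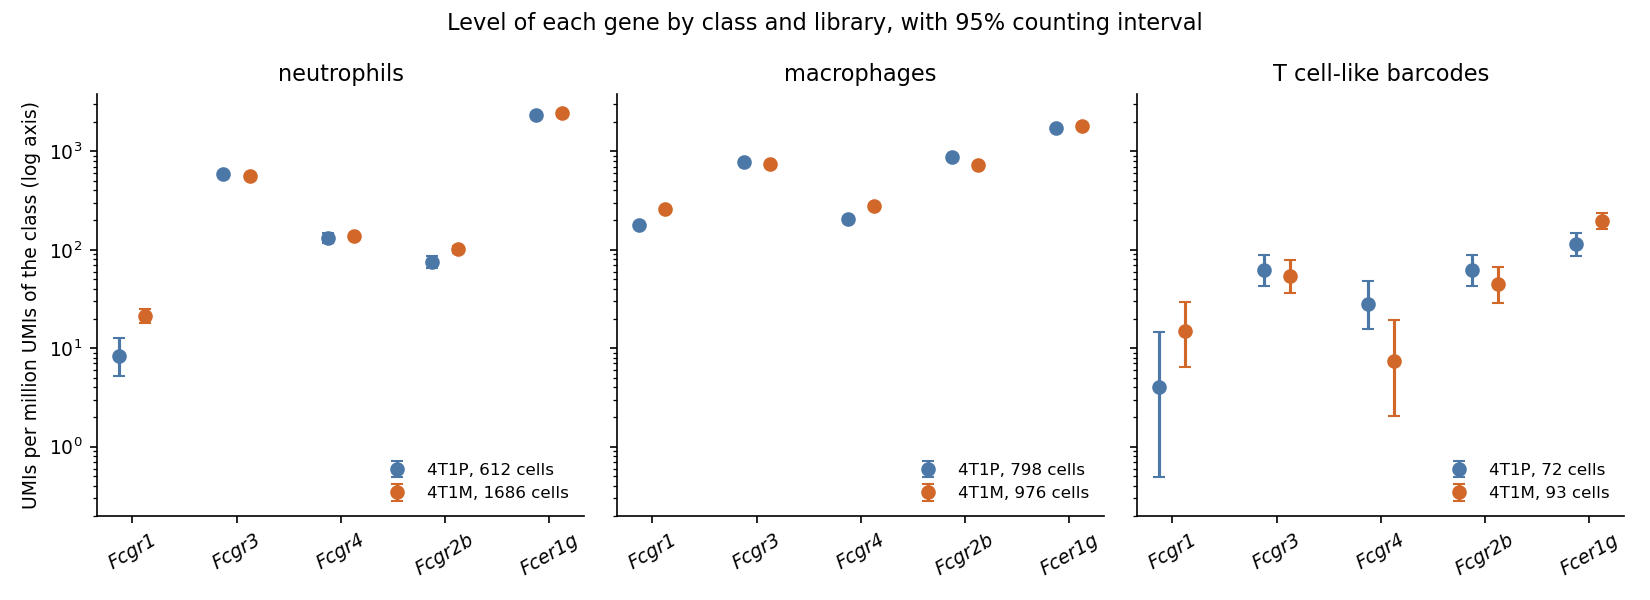
Level of each gene in CPM (log axis) in neutrophils, macrophages and T cell-like barcodes of 4T1P (blue) and 4T1M (orange), with bars for the 95% Poisson interval. Fcer1g is the highest of the 5 in each panel, and Fcgr1 is 21.3 and 12.3 times lower in neutrophils than in macrophages of 4T1P and 4T1M. Fcgr1 in neutrophils is 8.39 and 21.3 CPM, against 4.06 (0.492 to 14.7) and 15.0 CPM (6.47 to 29.5) in T cell-like barcodes. Of the 8 UMIs behind the last value, 7 lie in 1 barcode.

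Fcgr1, the high-affinity receptor for monomeric IgG, was a macrophage gene. Its level in macrophages was 179 CPM (170 to 188, 1566 UMIs) in 4T1P and 261 CPM (251 to 271, 2437 UMIs) in 4T1M. At least 1 UMI was found in 58.1% of the macrophages of 4T1P and 64.3% of those of 4T1M, and in 15.8% (13.3 to 18.6) and 19.8% (17.3 to 22.5) once each cell was thinned to 1000 UMIs. In neutrophils it held 21 UMIs in 4T1P and 140 in 4T1M, or 8.39 CPM (5.19 to 12.8) and 21.3 CPM (17.9 to 25.1), in 15 and 86 cells. These levels were 21.3 times below those of macrophages in 4T1P and 12.3 times below in 4T1M.

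Free RNA in droplet data gives UMIs in cells that do not express a gene, and T cells lack Fcgr1, so T cell-like barcodes outside both classes (at least 2 UMIs of Cd3d, Cd3e and Cd3g) served as a background. There were 72 in 4T1P and 93 in 4T1M, with median depths of 5933.5 and 5556 UMIs. A limit not set for neutrophils, under 0.3% of UMIs from the macrophage genes of the rule, held by construction for these T cell-like barcodes. Fcgr1 reached 4.06 CPM (0.492 to 14.7) in those of 4T1P and 15.0 CPM (6.47 to 29.5) in those of 4T1M, and 1 and 2 of them had a UMI, with 7 of the 8 UMIs of 4T1M in 1 barcode. The share with a UMI was 1.39% (0.0352 to 7.5) and 2.15% (0.262 to 7.55), against 2.45% (1.38 to 4.01) and 5.10% (4.10 to 6.26) of neutrophils. The intervals of the shares overlapped in both libraries, so Fcgr1 in neutrophils was not separated from background by the share of cells. Its level in 4T1M neutrophils was read against a background level that rests on 1 barcode.

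Fcgr3, the low-affinity activating receptor, was the main receptor gene of neutrophils. Its level in neutrophils was 583 CPM (554 to 614) in 4T1P and 564 CPM (546 to 583) in 4T1M. In macrophages it was 783 CPM (765 to 802) and 751 CPM (734 to 769), that is 1.34 and 1.33 times the neutrophil level. It was detected in 77.3% and 73.2% of neutrophils, and in 44.4% (40.5 to 48.5) and 41.8% (39.4 to 44.2) after thinning, against 1.39% and 2.17% of thinned T cell-like barcodes. The share in neutrophils was thus far above background in both libraries.

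Fcgr4, the receptor for IgG2a and IgG2b complexes, was present in both classes. It stood at 132 CPM (118 to 147) in neutrophils of 4T1P and 137 CPM (128 to 146) in those of 4T1M. In macrophages it stood at 203 CPM (194 to 213) in 4T1P and 279 CPM (268 to 290) in 4T1M. The macrophage level was 1.54 times that of neutrophils in 4T1P and 2.04 times in 4T1M. After thinning, 13.1% and 12.7% (11.1 to 14.3) of neutrophils had a UMI, against 1.39% and 1.09% of T cell-like barcodes.

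Fcgr2b, the inhibitory receptor, was the most abundant receptor gene of 4T1P macrophages. It reached 873 CPM (854 to 893, 7656 UMIs) in macrophages of 4T1P and 730 CPM (713 to 748, 6825 UMIs) in those of 4T1M, where Fcgr3 stood at 751 CPM with an overlapping interval. Thinned macrophages with a UMI were 51.4% (47.8 to 55.0) in 4T1P and 43.0% (39.8 to 46.3) in 4T1M, and the intervals did not overlap. In neutrophils it was 75.1 CPM (64.8 to 86.6, 188 UMIs) in 4T1P and 101 CPM (93.5 to 109, 665 UMIs) in 4T1M, 11.6 and 7.23 times below macrophages.

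In T cell-like barcodes Fcgr2b stood at 62.9 CPM (42.8 to 89.3) in 4T1P and 44.9 CPM (28.8 to 66.9) in 4T1M. Of the 31 UMIs behind the 4T1P value, 29 lay in 1 barcode, and 21 of the 24 behind the 4T1M value lay in 1 barcode. Thinned neutrophils with a UMI were 8.17% (6.12 to 10.6) and 7.43% (6.22 to 8.79), against 2.78% (0.338 to 9.68) and 3.26% (0.678 to 9.23) of T cell-like barcodes. The intervals of these thinned shares overlapped in both libraries. Without thinning the shares were 21.7% (18.5 to 25.2) and 21.1% (19.1 to 23.1) of neutrophils, against 2.78% (0.338 to 9.68) and 4.30% (1.18 to 10.6) of T cell-like barcodes, which were deeper, and these intervals lay apart. Before thinning, Fcgr2b was thus found in a larger share of neutrophils than of T cell-like barcodes, at a level far below that of macrophages. The intervals of its level in neutrophils and T cell-like barcodes overlapped in 4T1P and not in 4T1M. The class rule held the T cell-like barcodes low in macrophage genes, and whether background was higher in neutrophils was not tested. In B cell-like barcodes (at least 3 UMIs of Cd79a, Cd79b and Ms4a1, 31 in 4T1P and 30 in 4T1M) Fcgr2b took 5 of 8 receptor UMIs in 4T1P and 18 of 22 in 4T1M, and Fcgr1 had 0 UMIs, which allows up to 18.5 and 12.7 CPM (3 counts of the total).

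Fcer1g, the signalling chain, was higher in neutrophils than in macrophages. It reached 2326 CPM (2267 to 2387) in neutrophils of 4T1P and 2427 CPM (2389 to 2465) in those of 4T1M. In macrophages it reached 1712 CPM (1685 to 1740) and 1814 CPM (1787 to 1842). The neutrophil level was 1.36 and 1.34 times the macrophage level in 4T1P and 4T1M. It was found in 98.5% and 97.6% of neutrophils without thinning. Per UMI of the 3 activating receptors, neutrophils held 3.21 and 3.36 UMIs of the chain and macrophages 1.47 and 1.41, so the chain exceeded its Fc gamma partners in both classes.

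The question of how the lines differ was put to each class, as the log2 ratio of the level in 4T1M over that in 4T1P. Of the 5 genes, 1 (Fcgr1) was higher in 4T1M neutrophils by over 1.5-fold, where 9.81% of the 6465 genes with at least 50 UMIs were, and 0 were lower by over 1.5-fold, where 3.12% were. In macrophages 0 of the 5 were past 1.5-fold in either direction, where 4.03% of 9874 genes were higher and 4.08% lower. The median log2 ratio of all genes was 0.05 in neutrophils and -0.03 in macrophages. Most genes of both classes stayed within 1.5-fold, and the counts of members are near those shares. Under alternatives, Fcgr1 in macrophages passed 1.5-fold with a mitochondrial limit of 5% (log2 ratio 0.62) and Fcgr4 with no upper gene limit (0.59).

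**Figure D2:**
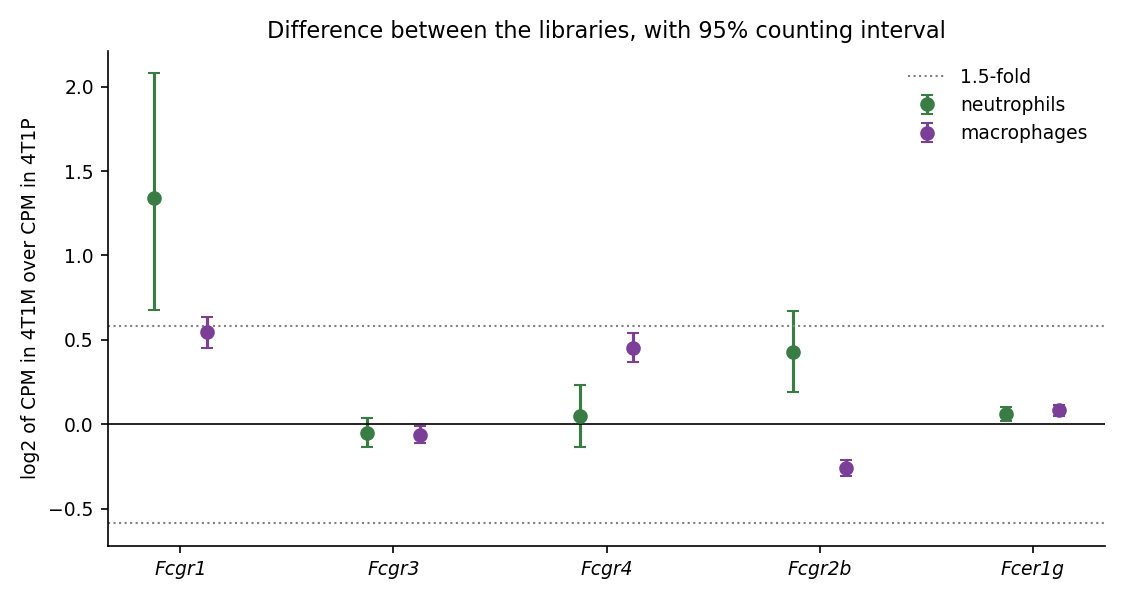
Log2 ratio of the level in 4T1M over that in 4T1P for each gene in neutrophils (green) and macrophages (purple), with bars for the 95% counting interval; dotted lines mark 1.5-fold. In macrophages Fcgr1 and Fcgr4 lie above 0 and Fcgr2b below it, whereas in neutrophils Fcgr2b lies above 0 and Fcgr3 and Fcgr4 close to it.

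In macrophages Fcgr1 and Fcgr4 were higher in 4T1M and Fcgr2b was lower. The log2 ratio was 0.55 (0.45 to 0.64) for Fcgr1 and 0.45 (0.37 to 0.54) for Fcgr4. It was -0.26 (-0.30 to -0.21) for Fcgr2b, whose interval did not reach 0. Fcgr3 differed by -0.06 (-0.11 to -0.01) and Fcer1g by 0.08 (0.05 to 0.12), both close to the median of all genes. Fcgr3 had the opposite sign, 0.0315, when barcodes above 5000 genes were let in, and Fcer1g had it, -0.0178 and -0.00627, when every cell weighed the same or was thinned. The neutrophil marker list was higher in 4T1M macrophages (730 against 1345 CPM) and the 3 macrophage markers outside the rule were lower (967 against 584 CPM), and their part in these values was not tested.

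In neutrophils Fcgr3, Fcgr4 and Fcer1g differed little between the libraries. The log2 ratio was -0.05 (-0.14 to 0.04) for Fcgr3, 0.05 (-0.13 to 0.23) for Fcgr4 and 0.06 (0.02 to 0.10) for Fcer1g. It was 0.43 (0.19 to 0.67) for Fcgr2b and 1.34 (0.67 to 2.08) for Fcgr1, the 2 genes with the lowest levels there. The share of neutrophils with a UMI of Fcgr2b was not higher in 4T1M (21.7% in 4T1P and 21.1% in 4T1M). Cells with a UMI of Fcgr2b held a mean of 1.41 UMIs in 4T1P and 1.87 in 4T1M, and at most 13 and 21. For Fcgr1 the highest count in 1 cell was 3 in 4T1P and 10 in 4T1M. The intervals do not cover such clumping within cells. With each cell thinned to 1000 UMIs the Fcgr2b value turned to -0.13, and the Fcgr1 value was 1.22 but rested on 5 and 28 cells with a UMI.

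The gap between the classes in these log2 ratios was -0.69 (-0.93 to -0.44) for Fcgr2b and 0.41 (0.20 to 0.61) for Fcgr4, taken as macrophages minus neutrophils. It was -0.80 (-1.54 to -0.12) for Fcgr1, -0.01 (-0.11 to 0.09) for Fcgr3 and 0.02 (-0.03 to 0.08) for Fcer1g. The interval of the gap excluded 0 for Fcgr1, Fcgr2b and Fcgr4 and included it for Fcgr3 and Fcer1g. With cells thinned to 1000 UMIs, the log2 ratio of Fcgr2b was -0.37 in macrophages and -0.13 in neutrophils, so that both had the same sign.

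The make-up of the receptor UMIs set the classes apart. In neutrophils Fcgr3 took 73.0% (71.0 to 74.9) of the 2000 UMIs of the 4 receptor genes in 4T1P and 68.5% (67.3 to 69.8) of 5417 in 4T1M. Fcgr4 took 16.6% in each, Fcgr2b 9.40% and 12.3%, and Fcgr1 1.05% and 2.58%. In macrophages Fcgr2b took 42.8% (42.1 to 43.6) of 17871 UMIs in 4T1P and 36.1% (35.5 to 36.8) of 18885 in 4T1M. Fcgr3 took 38.4% and 37.2%, while Fcgr1 went from 8.76% to 12.9% and Fcgr4 from 9.98% to 13.8% between 4T1P and 4T1M.

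**Figure D3:**
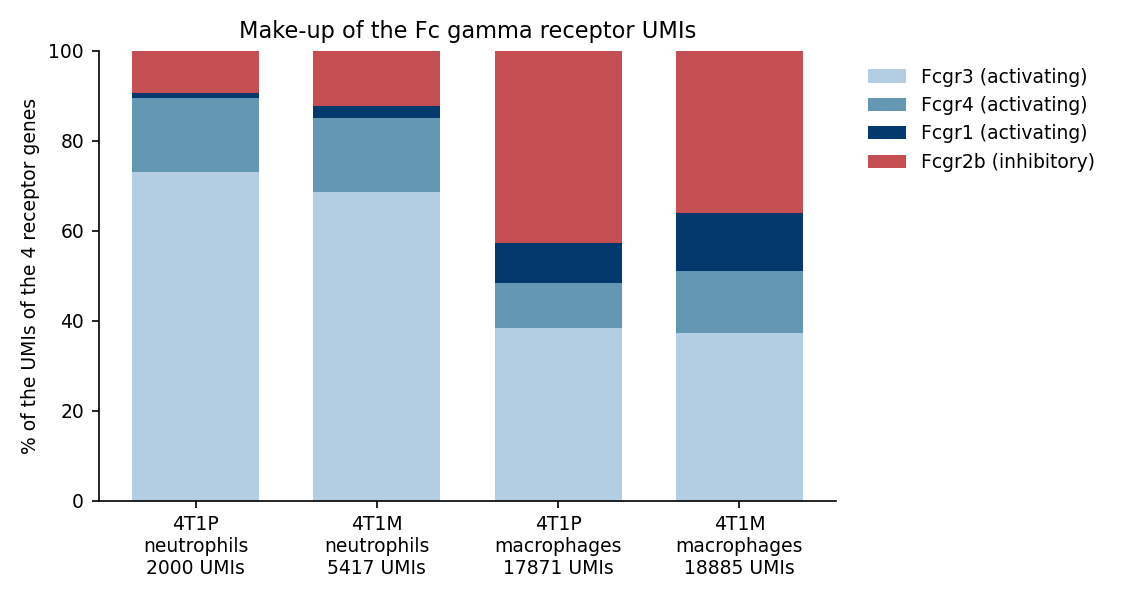
Share of the UMIs of the 4 Fc gamma receptor genes taken by each gene (y axis, %) in neutrophils and macrophages of 4T1P and 4T1M, with the number of UMIs under each bar. The inhibitory gene Fcgr2b (red) takes 9.40% and 12.3% in neutrophils and 42.8% and 36.1% in macrophages, and Fcgr3 (pale blue) takes 73.0% and 68.5% in neutrophils.

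The activating to inhibitory ratio is the UMIs of Fcgr1, Fcgr3 and Fcgr4 over those of Fcgr2b, taken within a class and a library, so that it does not depend on scaling. In macrophages it was 1.33 (1.30 to 1.37) in 4T1P and 1.77 (1.72 to 1.82) in 4T1M, 1.32 times higher (1.27 to 1.38) in 4T1M. In neutrophils it was 9.64 (8.29 to 11.3) in 4T1P and 7.15 (6.59 to 7.76) in 4T1M, a log2 difference of -0.43 (-0.69 to -0.18). Neutrophils stood above macrophages by 7.22 times (6.19 to 8.46) in 4T1P and by 4.04 times (3.71 to 4.42) in 4T1M. The macrophage ratio was higher in 4T1M under every alternative tried, but the neutrophil ratio was not lower under all of them, and with cells thinned to 1000 UMIs it was 9.27 in 4T1P and 9.41 in 4T1M.

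The neutrophil ratio rests on 188 and 665 UMIs of Fcgr2b, and it was read again in neutrophils without UMIs of 4 macrophage genes, which does not show that they hold no macrophage RNA. These cells were shallower, with medians of 2856 and 2678 UMIs against 3194 and 3180 in the others. In neutrophils with 0 UMIs of C1qa, C1qb, C1qc and Apoe (248 in 4T1P and 719 in 4T1M) the ratio was 12.6 and 10.3, with a log2 difference of -0.29 (-0.78 to 0.18). In those with at least 1 such UMI (364 and 967) it was 8.46 and 6.11, with a log2 difference of -0.47 (-0.77 to -0.17). Fcgr2b stood at 63.4 CPM (47.7 to 82.8) and 70.5 CPM (60.1 to 82.1) in the former and at 81.1 CPM (68.0 to 96.1) and 118 CPM (108 to 129) in the latter. The difference in Fcgr2b between lines was 0.15 (-0.30 to 0.62) in neutrophils without such UMIs and 0.54 (0.26 to 0.83) in those with them, and the difference in the ratio was within counting error in the former.

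Fcgr1 was also lower in neutrophils with 0 such UMIs, at 2 UMIs (2.35 CPM) in 4T1P and 18 (7.69 CPM) in 4T1M, a log2 difference of 1.71 (-0.35 to 4.86), and at 11.5 and 28.8 CPM with them. Fcgr3 went the other way. It stood at 658 and 586 CPM in neutrophils with 0 such UMIs and at 545 and 552 CPM in the others, with intervals that overlapped in 4T1M and not in 4T1P. Fcgr4 was 137 and 132 CPM against 130 and 140 CPM, with intervals that overlapped in each library. The part of macrophage RNA in the neutrophil values was not tested beyond this split.

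Within macrophages the genes were followed through subsets set by UMIs of a few marker genes among 1000 thinned UMIs. The subsets may share cells. Resident-like macrophages (at least 2 UMIs of Mrc1, Cd163, Folr2 and Lyve1) were 131 of 772 in 4T1P and 66 of 939 in 4T1M. Macrophages rich in Thbs1, Mmp12 and Arg1 (at least 5 UMIs) were 222 and 216, those with at least 2 UMIs of Cxcl9 and Cxcl10 were 65 and 85, and those with at least 3 UMIs of the monocyte genes Ly6c2, Plac8 and Ccr2 were 48 and 88.

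Fcgr1 varied widely among the subsets of both libraries. It reached 499 CPM (450 to 552) in 4T1M macrophages with monocyte genes against 240 CPM (229 to 250) in the other macrophages of that library, a log2 difference of 1.06 (0.90 to 1.22). In 4T1P the same subset stood at 220 CPM (181 to 264) against 176 CPM (168 to 186), a difference of 0.32 (0.02 to 0.59). Between the lines Fcgr1 thus differed by 1.18 (0.88 to 1.5) in the cells with monocyte genes and by 0.44 (0.34 to 0.54) in the rest.

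The lowest Fcgr1 level lay in macrophages rich in Thbs1, Mmp12 and Arg1, genes of matrix and arginine handling. It was 123 CPM (111 to 137) in 4T1P and 206 CPM (188 to 226) in 4T1M, with a log2 difference between the lines of 0.74 (0.54 to 0.95). In the Cxcl9 and Cxcl10 subset, which carries chemokines that interferon-gamma induces, the levels were 272 CPM (237 to 310) and 318 CPM (285 to 354), with a difference of 0.23 (-0.02 to 0.48). In resident-like macrophages they were 177 CPM (158 to 199) and 266 CPM (232 to 303).

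Fcgr4 was highest in the Cxcl9 and Cxcl10 subset in both libraries. It stood at 336 CPM (297 to 379) there against 191 CPM (181 to 200) in the other macrophages of 4T1P, and at 395 CPM (358 to 434) against 263 CPM (252 to 274) in 4T1M. With monocyte genes it was 253 CPM (211 to 300) and 327 CPM (288 to 370), with intervals that overlapped those of the former subset. There it exceeded the other macrophages by a log2 difference of 0.33 (0.06 to 0.59) in 4T1P and 0.26 (0.06 to 0.45) in 4T1M. It was lowest in macrophages rich in Thbs1, Mmp12 and Arg1, at 136 CPM (122 to 150) and 175 CPM (158 to 193). Its log2 difference between the lines was highest in resident-like macrophages, at 0.69 (0.45 to 0.94), where the levels were 183 CPM (163 to 204) in 4T1P and 296 CPM (260 to 335) in 4T1M. The difference was 0.37 (0.16 to 0.58) in the Thbs1, Mmp12 and Arg1 subset and 0.37 (0.06 to 0.69) with monocyte genes. In the Cxcl9 and Cxcl10 subset it was 0.23 (0.01 to 0.46). Each of these intervals overlapped that of resident-like macrophages.

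Fcgr2b stood higher in resident-like macrophages and in those with monocyte genes than in the rest. It was 1070 CPM (1021 to 1121) and 893 CPM (831 to 959) in resident-like macrophages, a log2 difference from the other macrophages of 0.37 (0.29 to 0.45) in 4T1P and 0.32 (0.21 to 0.43) in 4T1M. With monocyte genes it was 1074 CPM (986 to 1168) and 865 CPM (801 to 934). Fcgr2b was lower in 4T1M in all 4 subsets, by a log2 ratio from -0.18 (-0.28 to -0.09) in the Thbs1, Mmp12 and Arg1 subset to -0.49 (-0.65 to -0.34) in the Cxcl9 and Cxcl10 subset.

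Fcgr3 and Fcer1g varied less than Fcgr1 and Fcgr4, in proportion to their levels. Fcgr3 was between 686 and 927 CPM in the subsets of 4T1P and between 704 and 870 CPM in those of 4T1M. Its log2 difference between the lines was -0.38 (-0.52 to -0.23) in the Cxcl9 and Cxcl10 subset and between -0.02 and 0.04 in the other 3 subsets. Fcer1g was between 1645 and 1960 CPM in 4T1P and between 1694 and 2131 CPM in 4T1M, highest with monocyte genes in both libraries.

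**Figure D4:**
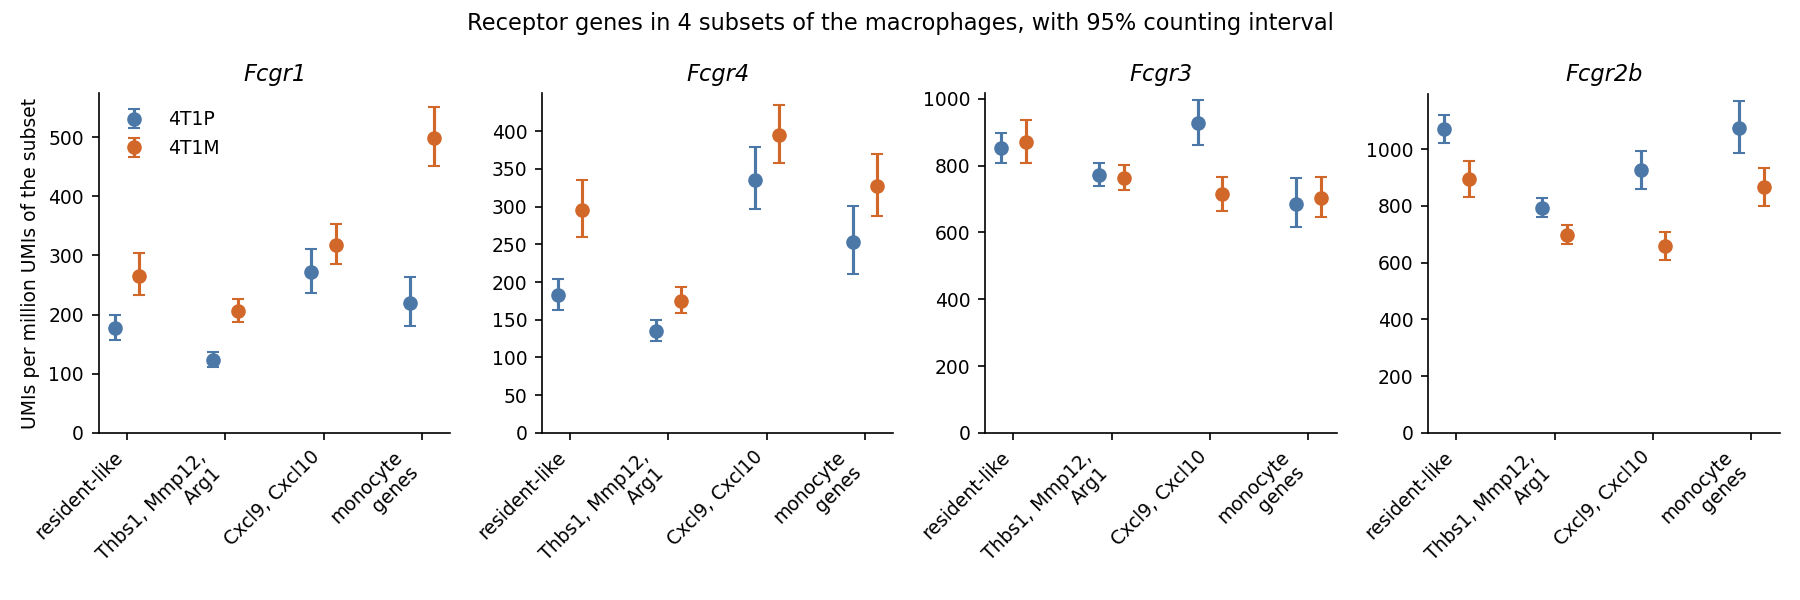
Level of Fcgr1, Fcgr4, Fcgr3 and Fcgr2b in 4 subsets of the macrophages (x axis) in CPM of the subset (y axis, from 0), for 4T1P (blue) and 4T1M (orange), with 95% Poisson intervals. Fcgr1 is highest in 4T1M macrophages with monocyte genes (499 CPM), Fcgr4 in the Cxcl9 and Cxcl10 subset, and Fcgr2b lies lower in 4T1M in all 4 subsets.

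The activating to inhibitory ratio was higher in 4T1M in all 4 macrophage subsets. It went from 1.13 to 1.60 in resident-like macrophages, from 1.30 to 1.64 in the Thbs1, Mmp12 and Arg1 subset, from 1.66 to 2.17 in the Cxcl9 and Cxcl10 subset and from 1.08 to 1.77 in macrophages with monocyte genes. The log2 differences were 0.50 (0.34 to 0.66), 0.33 (0.21 to 0.46), 0.39 (0.20 to 0.58) and 0.71 (0.49 to 0.93) in that order. Resident-like macrophages made up 17.0% of thinned macrophages in 4T1P and 7.03% in 4T1M, and the ratio differed between the lines within them and outside them (0.35, 0.29 to 0.42).

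**Figure D5:**
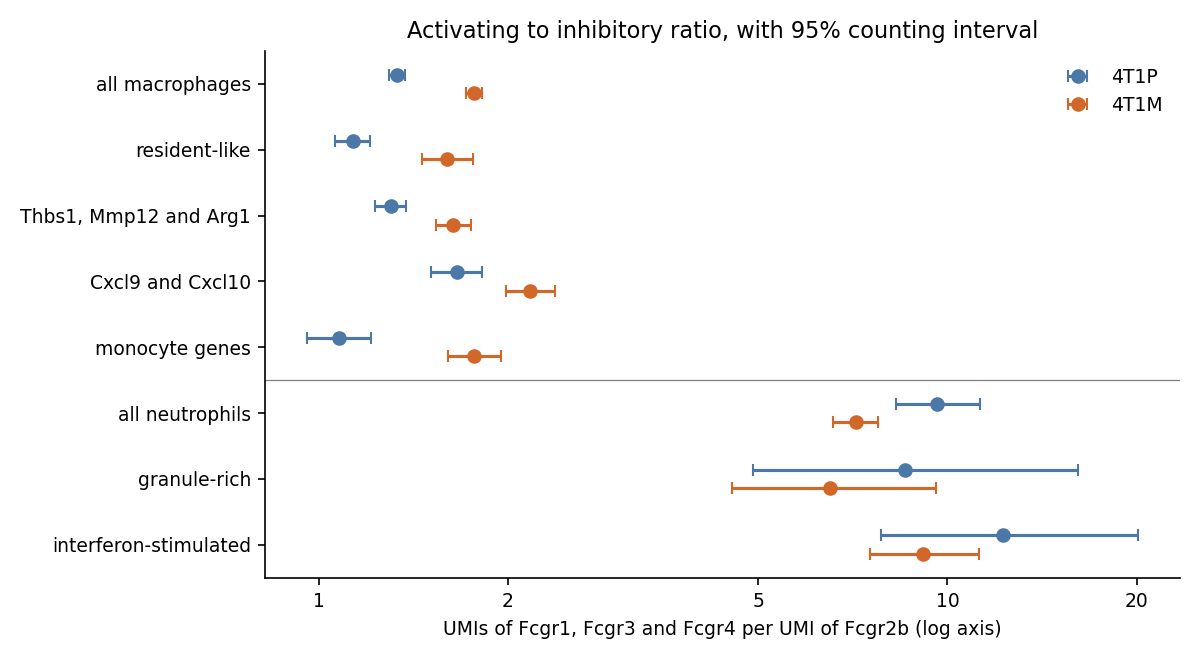
UMIs of Fcgr1, Fcgr3 and Fcgr4 per UMI of Fcgr2b (x axis, log scale) in macrophages, neutrophils and their subsets (rows) for 4T1P (blue) and 4T1M (orange), with the 95% interval of counting error. In each macrophage row 4T1M lies to the right of 4T1P, from 1.33 to 1.77 over all macrophages, and in each neutrophil row it lies to the left, with overlapping intervals in both neutrophil subsets.

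Neutrophil subsets differed in Fcgr4. Interferon-stimulated neutrophils (at least 5 UMIs of Ifit1, Ifit2, Ifit3, Isg15, Rsad2 and Irf7) were 78 of 612 in 4T1P and 326 of 1682 in 4T1M, or 12.7% and 19.4%. Fcgr4 stood at 224 CPM (172 to 288) in them against 121 CPM (107 to 136) in the other neutrophils of 4T1P, and at 248 CPM (220 to 279) against 113 CPM (104 to 122) in 4T1M. The log2 difference within the library was 0.89 (0.47 to 1.30) in 4T1P and 1.13 (0.93 to 1.34) in 4T1M. Fcgr3 differed by 0.32 (0.10 to 0.54) and 0.14 (0.01 to 0.25), and Fcer1g by 0.19 (0.08 to 0.31) and 0.27 (0.21 to 0.32). For Fcgr2b the differences were 0.05 (-0.68 to 0.71) and -0.06 (-0.37 to 0.23), with 21 and 112 UMIs in the subset. For Fcgr1 they were 0.45 (-1.95 to 2.23) in 4T1P, on 3 UMIs, and 0.97 (0.41 to 1.51) in 4T1M, at 35.7 CPM (41 UMIs) against 18.2 CPM.

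The Fcgr4 level of interferon-stimulated neutrophils differed between the lines by 0.15 (-0.26 to 0.57), and that of the other neutrophils by -0.10 (-0.31 to 0.11). Granule-rich neutrophils (at least 10 UMIs of Camp, Ltf and Ngp, genes of the secondary granules made before neutrophils mature) were 19 cells in 4T1P and 45 in 4T1M. The CPM of the genes was lower in these cells. Fcgr3 stood at 301 CPM (245 to 366) and 290 CPM (250 to 334) in them against 626 and 595 CPM in the other neutrophils. Fcgr4 stood at 60.8 CPM (37.1 to 93.9) and 51.6 CPM (35.7 to 72.1) against 143 and 146 CPM. Fcer1g stood at 1766 CPM (1625 to 1916) and 1732 CPM (1633 to 1836) against 2411 and 2505 CPM. For Fcgr2b the log2 difference was -0.91 (-1.81 to -0.13) and -1.0 (-1.54 to -0.51), and for Fcgr1 it was -1.60 (-6.97 to 1.05) in 4T1P and -2.35 (-4.64 to -0.77) in 4T1M, on 1 and 3 UMIs. The intervals excluded 0 in both libraries for the other 4 genes and in 4T1M alone for Fcgr1. The granule-rich cells were deeper, with medians of 15665 and 12741 UMIs, so a lower CPM does not mean fewer UMIs per cell. After thinning, Fcgr4 was found in 21.1% of them in 4T1P, against 12.8% of the other neutrophils. In 4T1M the shares were 2.22% and 13.0%.

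Per cell the receptors were read after thinning to 1000 UMIs. Among macrophages, 28.5% (25.3 to 31.8) in 4T1P and 36.0% (32.9 to 39.2) in 4T1M had an activating receptor alone, 36.3% (32.9 to 39.8) and 29.4% (26.5 to 32.4) had both kinds, and 15.2% and 13.6% the inhibitory receptor alone. The intervals of the activating-alone share did not overlap between the lines. Among neutrophils 46.4% and 44.9% had an activating receptor alone and 45.4% and 47.6% had no receptor UMI. In macrophages with a thinned UMI of Fcgr3, Fcgr2b was found in 58.3% (53.3 to 63.2) in 4T1P and 47.6% (42.9 to 52.3) in 4T1M, against 44.1% (39.1 to 49.3) and 38.7% (34.3 to 43.2) of those without. These 2 genes share 31-base words, and the part of that in the co-detection was not tested.

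Other genes of the pathway were counted by list, to be read beside the shares of all genes with at least 50 UMIs. By over 1.5-fold, 4.03% of these were higher and 4.08% lower in macrophages, and 9.81% and 3.12% in neutrophils. Of the ITAM signalling genes (Syk, the Src-family kinases, adaptors, phospholipases and others), 26 of 27 had enough UMIs in macrophages, where 1 was higher and 0 were lower by over 1.5-fold and the median log2 ratio was 0.03. The 1 was the kinase gene Src, at 23.3 and 37.5 CPM, a log2 ratio of 0.69 (0.43 to 0.94). In neutrophils 22 were measured, 2 were higher (the kinase adaptor Gab2, 0.66, 0.36 to 0.97, and the exchange factor Sos1, 0.74, -0.08 to 1.66) and 1 was lower (Card9, the adaptor towards NF-kB, -0.75, -1.42 to -0.06), with a median of 0.09. The counts of this list are near the shares of all genes in both classes.

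Of the 11 genes of inhibitory signalling downstream of ITIMs, 1 was lower in macrophages and 1 of 9 in neutrophils, in both cases the adaptor Dok2, with medians of 0.02 and 0.07. Dok2 stood at 117 and 77.1 CPM in macrophages, a log2 ratio of -0.61 (-0.75 to -0.47), and held 70 and 109 UMIs in neutrophils, a log2 ratio of -0.76 (-1.20 to -0.30). Of 8 other inhibitory receptors, 2 were higher in macrophages, where 4.03% of all genes were, and 0 were lower, with a median of 0.09. These were Siglece, a sialic acid receptor, at 1.01 (0.59 to 1.43) from 8.21 to 16.5 CPM, and Clec12a, a receptor of uric acid crystals, at 0.67 (0.44 to 0.90). In neutrophils 0 of the 8 passed 1.5-fold, and their median was -0.10.

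Other receptors that need the FcR gamma chain were measured at 5 of 11 in each class (8 were in the matrices). In macrophages 0 passed 1.5-fold and the median was -0.37, with Cd300ld at -0.54 (-0.79 to -0.29), Clec4n (Dectin-2, a receptor of fungal mannans) at -0.40 (-0.47 to -0.33) and Clec4e (Mincle, a receptor of glycolipids) at 0.37 (0.30 to 0.44). In neutrophils 1 was higher, Clec4n, from 67.1 to 132 CPM, a log2 ratio of 0.97 (0.73 to 1.22), and the median was 0.14. Tyrobp (DAP12), the other ITAM chain of myeloid cells, stood at 1460 and 1447 CPM in macrophages and 2021 and 2106 CPM in neutrophils, with log2 ratios of -0.01 and 0.06, beside 0.08 and 0.06 for Fcer1g.

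Of 13 other Fc receptors, 4 were measured in macrophages and 1 was lower. It was Fcrls, an Fc receptor-like gene, at 47.4 CPM in 4T1P and 7.17 CPM in 4T1M, a log2 ratio of -2.73 (-3.12 to -2.35). Fcgrt, the neonatal Fc receptor that recycles IgG, differed by -0.36 (-0.48 to -0.24). In neutrophils 2 were measured, with 0 past 1.5-fold. Of 13 interferon-gamma response genes, 5 were higher and 0 lower in macrophages, where 4.03% of all genes were higher. In neutrophils 3 of 12 were higher, where 9.81% of all genes were. The medians of the list were 0.43 in macrophages and 0.45 in neutrophils. Tap1, a peptide transporter, reached 0.91 (0.77 to 1.05) and Gbp2, a guanylate-binding protein, 0.97 (0.81 to 1.13) in macrophages, whereas Irf1 stood at -0.18 (-0.32 to -0.04) and Cxcl10 at -0.05 (-0.12 to 0.03). Fcgr1 (0.55) and Fcgr4 (0.45) lay inside that wide range in macrophages, and a link of these receptors to interferon-gamma was not tested. The lists were chosen with results of these data known, and their counts are descriptions.

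Cell by cell, no gene followed a member closely. Over thinned macrophages (772 in 4T1P and 939 in 4T1M, 1184 genes), the 3 genes most like Fcgr4 were the MHC class II genes Cd74, H2-Ab1 and H2-Aa, with Pearson's r of 0.24, 0.20 and 0.22 in 4T1P and 0.16, 0.16 and 0.15 in 4T1M. Those most like Fcer1g were Tyrobp, Cst3 and Ctsz (r from 0.14 to 0.18), most like Fcgr1 H2-DMa, Ctss and Ctsc, most like Fcgr2b Malat1, Ctss and Itgam, and most like Fcgr3 Lyz2, Ms4a7 and Apoe (r from 0.08 to 0.18). The cells share a library and a depth, and correlations this weak in sparse counts are no finding. Between the members themselves r was at most 0.13 in macrophages, for Fcgr2b with Fcgr3.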

How the data were processed

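GR1+ cells of 4T1P and 4T1M tumors were measured in 1 pooled droplet library each. Per the labels, the authors used Cell Ranger (4.0.0, while the methods name a later version) with mm10 (GRCm38), and the deposited values are raw UMI counts per gene and barcode, without normalization; the methods' normalization (SCTransform) and test (MAST) were not used here. The members and all gene lists were chosen with earlier results of these data known.

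Barcodes were filtered and classed by the limits given above. For each class of each library the UMIs of all its cells were added up and divided by the class total (CPM). Levels carry exact Poisson intervals, shares Clopper-Pearson intervals, ratios between libraries exact conditional intervals and ratios of ratios the conditional odds ratio interval (95%, scipy 1.17.1), which cover counting error only; free RNA and reused molecules are not covered. With 1 library per condition there was no test, no p-value and no replicate to leave out. A gene counted as past the threshold with at least 50 UMIs over both libraries and a ratio over 1.5-fold. Shares of cells were read also after thinning each cell to 1000 UMIs, which left out 4 of 1686 neutrophils (4T1M) and 26 and 37 macrophages. Named genes were the 5 members, up to 2 at each end of each list, and the 3 most correlated genes per member. The interval code was tested on simulated independent Poisson counts, the model that the interval assumes, so UMIs clumped within cells were not tested. Doublets were kept in the main values. Scrublet (scanpy 1.11.5) marked 1 and 0 barcodes by its own threshold and so had not worked; the 69 and 200 highest scores were left out as an alternative. Other alternatives were the mitochondrial, gene and class limits, edgeR (4.0.16) TMM and DESeq2 (1.42.0) factors, totals without the 10 most abundant genes, equal weight per cell, thinning, neutrophils without C1q and Apoe UMIs, other activating sets, and the UMI and fold thresholds. Promoters are RefSeq (GRCm38.p6), positions GENCODE (GRCm38); all 5 symbols matched. Protein sequences were not used here, and results that need 2 genes of the lists are not reported here.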

Additional observations from a re-analysis of the deposited data

Results flagged for a closer look

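In 2 cases results differed between the classes with intervals on opposite sides of 0, and with 1 library per line neither difference was tested. The log2 ratio of Fcgr2b (4T1M over 4T1P) was lower in macrophages than in neutrophils by a difference of -0.69 (with cells thinned the values were -0.37 and -0.13, of the same sign, and without C1q and Apoe UMIs the neutrophil value was 0.15), and the log2 difference of the activating to inhibitory ratio was higher in macrophages by 0.84. In neutrophils with 0 UMIs of C1qa, C1qb, C1qc and Apoe the latter had an interval from -0.78 to 0.18 in neutrophils, with cells thinned the neutrophil ratios were 9.27 (4T1P) and 9.41 (4T1M), and the part of macrophage RNA was not tested beyond that split.

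Signal of the 5 genes was also present in barcodes that the limits left out. Together they took 1983 CPM in the 133 barcodes with over 5000 genes of 4T1P and 2117 CPM in the 48 of 4T1M. In barcodes with over 10% mitochondrial UMIs they took 1970 CPM (423 barcodes) and 2203 CPM (473 barcodes), and in those with under 500 genes 1043 CPM (665 barcodes) and 1741 CPM (1022 barcodes). The activating to inhibitory ratio was higher in 4T1M in each of the 3 sets, at 1.63 and 2.73, at 1.69 and 2.56, and at 2.39 and 4.35. The make-up of these sets differed between the libraries, S100a8 and S100a9 taking 0.0460% and 0.992% of the UMIs in the first set, and its part in the ratio was not tested.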

How the results depend on the processing

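No paired analysis was possible because each condition has 1 library. Of the recomputed values, 88 stayed within the counting interval or 1.5 times the count, 49 moved and 4 reversed, and the cause was not tested except where fewer genes or cells entered by construction. Values that stayed could still change sign where the interval held 0. Fcgr4 in neutrophils, 0.0486 in the main values, was -0.00166 with stricter class limits and -0.0235 without the highest doublet scores. It was -0.0630 in neutrophils free of C1q and Apoe UMIs. With cells thinned to 1000 UMIs, the log2 ratio of Fcgr2b in neutrophils reversed to -0.13 and that of Fcer1g in macrophages to -0.00627, and moves went to 0.38 (Fcgr1), -0.37 (Fcgr2b), -0.20 (Fcgr3) and 0.25 (Fcgr4) in macrophages and to -0.17 (Fcgr3) and 0.00488 (Fcer1g) in neutrophils. With equal weight per cell, Fcer1g in macrophages reversed to -0.0178, and values moved to 0.33 (Fcgr1, macrophages), 0.18 (Fcgr2b), -0.16 (Fcgr3) and 0.0166 (Fcer1g) in neutrophils. With no upper gene limit, Fcgr3 in macrophages reversed to 0.0315, and Fcgr2b moved to -0.16, Fcgr4 to 0.59 (just past 1.5-fold) and Fcer1g to 0.17. With neutrophils free of C1q and Apoe UMIs, Fcgr2b moved to 0.15 and Fcgr3 to -0.17. DESeq2 scaling moved Fcer1g to 0.0147 in neutrophils and 0.12 in macrophages, and the 5% mitochondrial limit moved it to 0.0437 in macrophages and took Fcgr1 there past 1.5-fold (0.62). Fcgr1 in macrophages kept its sign, from 0.33 to 0.62, as did Fcgr4, from 0.25 to 0.59, and Fcgr2b, from -0.37 to -0.16.

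The activating to inhibitory ratio (4T1P, then 4T1M) in macrophages moved to 1.40 and 1.83 without the gene limit, 1.45 and 1.86 with equal weight, 1.46 and 1.88 thinned, 1.13 and 1.41 without Fcgr1, and 0.437 and 0.739 without Fcgr3, higher in 4T1M each time. In neutrophils it moved to 13.0 and 8.84 with stricter class limits, 12.6 and 10.3 without C1q and Apoe UMIs, and 1.87 and 1.56 without Fcgr3; the 4T1M value alone moved to 8.88 with equal weight, 9.41 thinned (9.27 in 4T1P, so that 4T1M was no longer lower) and 8.04 without the highest doublet scores.

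The counts of genes higher and lower moved with the threshold. With no filter they were 4768 and 3077 in neutrophils and 3083 and 3194 in macrophages, with at least 200 UMIs 228 and 34, and 195 and 148, and with a fold of 2 they were 180 and 38, and 123 and 99. Depth limits Fcgr1 and Fcgr2b in neutrophils, at 21 and 188 UMIs in 4T1P, and the T cell-like background, at 72 and 93 barcodes. With 1 library per line, tumor line, pooling, sorting and library cannot be told apart.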

Other observations

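Barcodes outside both classes also held the genes. Those with both marker sets (11 in 4T1P and 53 in 4T1M) had Fcgr2b at 31.5% (25.6 to 37.8) and 30.7% (27.3 to 34.2) of receptor UMIs, between the shares of the classes, and activating to inhibitory ratios of 2.18 and 2.26. Those low in both marker sets and not T or B cell-like (202 and 623) had Fcgr3 at 50.2% and 48.6% of receptor UMIs, Fcer1g at 1288 CPM (1215 to 1364) and 1717 CPM (1663 to 1773), and ratios of 2.25 (1.97 to 2.57) and 1.95 (1.79 to 2.13).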
